A study of Mus musculus with 6 samples.

Results

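Genes that mark the cells around and between tendon fascicles, Tppp3, Cd34, Ly6a, Sema3c, Pi16, Dpp4, Cd55, Clec3b, Gsn and Apoe, were followed in the Achilles tendon of mice with an active Piezo1 channel. They were chosen by gene symbol as markers of sheath, paratenon and interstitial progenitor fibroblasts, and all 10 were found among the 24411 genes of the table and among the 13466 with enough counts to be tested. The tendons came from C57BL/6 mice aged 18 weeks. One group was wild type (WT, 3 libraries), and the other carried the genotype Scx-Cre/Piezo1 GOF (3 libraries), in which a Cre recombinase under control of the tendon transcription factor gene Scx is combined with a gain-of-function allele of the mechanically gated cation channel gene Piezo1. Whether the WT mice carried either allele alone, and whether each library came from 1 animal, is not given in the sources used here. The p-values compare the genotype groups given the spread between these libraries. That spread may be technical, so the p-values may not extend to other animals. Which of the cells that express these markers had been reached by the Cre was not measured.

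A tendon is more than its tenocytes. Collagen fascicles are wrapped by sheath and paratenon, thin connective tissue layers that carry vessels, nerves and loosely packed fibroblasts, and some of these fibroblasts act as progenitors that supply new tenocytes after injury. Tppp3, a tubulin-binding protein, labels tendon sheath cells. Cd34, a sialomucin, and Ly6a, the GPI-anchored Sca-1 antigen, label stromal progenitors but are also made by endothelium. Pi16, Dpp4, Cd55, Clec3b and Sema3c are read together as the signature of an adventitial or interstitial fibroblast found in many tissues, whereas Gsn (an actin-severing protein) and Apoe (a lipid carrier) are abundant in this fibroblast and in other cells as well.

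Across the 10 markers, Clec3b showed the largest difference between genotypes and Tppp3 the smallest, and no marker passed the threshold over all genes. Clec3b was 4.44-fold higher in Piezo1 GOF, Ly6a 2.17-fold, Dpp4 1.94-fold and Sema3c 1.68-fold, with all 3 mutant libraries above all 3 WT libraries for each. Cd34 also did not overlap between groups but differed by 1.41-fold. Gsn, Apoe, Pi16 and Cd55 had higher means in the mutant with overlapping groups. Tppp3, the sheath marker proper, stood at the same mean level in both genotypes. In the quasi-likelihood test of edgeR, adjusted by Benjamini-Hochberg over all 13466 tested genes, 0 of the 10 were called higher, against a background of 0.0149% called higher (2 genes) and 0% called lower. DESeq2 called 2 of the 10 higher, Clec3b and Ly6a, against 3.46% of the genes it tested (2.51% lower). The exact test of edgeR called the same 2 against 3.36% (1.76% lower), and limma voom called 0 against 0.72% (0.141% lower). With the muscle genes removed, edgeR called 0 of the 10 against 0.0148% higher.

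At an unadjusted p under 0.05, edgeR placed 4 of the 10 higher and 0 lower, against 10.2% of all tested genes higher and 9.59% lower. The groups did not overlap for 5 of the 10, each of them higher in Piezo1 GOF, against 13.6% of all genes higher and 12.1% lower. Of the 10 markers 9, all but Tppp3, had positive log2 fold changes, against 49.7% of all genes. Their median was 0.73 beside a median of -0.0045 over all tested genes. The markers and lists were chosen with earlier results of these data known, so such comparisons with all genes describe and do not test them. Log2 fold changes are Piezo1 GOF over WT with their standard error (SE), and levels are CPM, the reads of a gene over the TMM-adjusted library total.

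Total counts per library lay between 8131527 and 17180856. Markers of other tissues moved with the genotypes or with single libraries. Skeletal muscle markers summed to 94769 to 201112 CPM in WT and 30121 to 92555 CPM in Piezo1 GOF, macrophage markers to 195 to 312 and 738 to 914 CPM, and endothelial markers to 1185 to 1811 and 692 to 1046 CPM. WT replicate 1 stood apart in nerve and smooth muscle genes: the myelin gene Mbp was at 1001 CPM there and between 7.13 and 30.6 CPM in the other 5 libraries, and the smooth muscle actin gene Acta2 at 1946 against 120.4 to 163 CPM. The 8 Schwann cell markers together reached 3672 CPM in that library and 169 to 606 CPM elsewhere. Fits without that library are given beside some values. So are fits with the muscle genes removed, or with the mean log2 CPM of the muscle markers as a covariate. The part of the other tissues in the marker values was not tested. In bulk tissue fewer cells of a type cannot be told apart from less RNA per cell. T cell markers, a possible source of Dpp4, summed to at most 3.17 CPM in any library. The tenocyte markers, in contrast, were detected in all 6 libraries, with sums of 5104 to 14951 CPM in WT and 29103 to 50649 CPM in Piezo1 GOF. WT replicate 2 had the lowest sum, 5104 CPM, against 14951 and 10949 CPM in WT replicates 1 and 3. Its pan-fibroblast markers summed to 1978 CPM, against 7990 and 5148 CPM, and its muscle sum of 201112 CPM was the highest of all libraries. Fits without WT replicate 1 keep this library in the WT group. The mutated gene Piezo1 averaged 121 ± 21.1 CPM in WT and 153 ± 24.7 CPM in the mutant (SD, n = 3 each; edgeR log2 fold change 0.34 ± 0.23 SE with adjusted p = 0.442), a level that does not check a gain-of-function label.

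**Figure D1:**
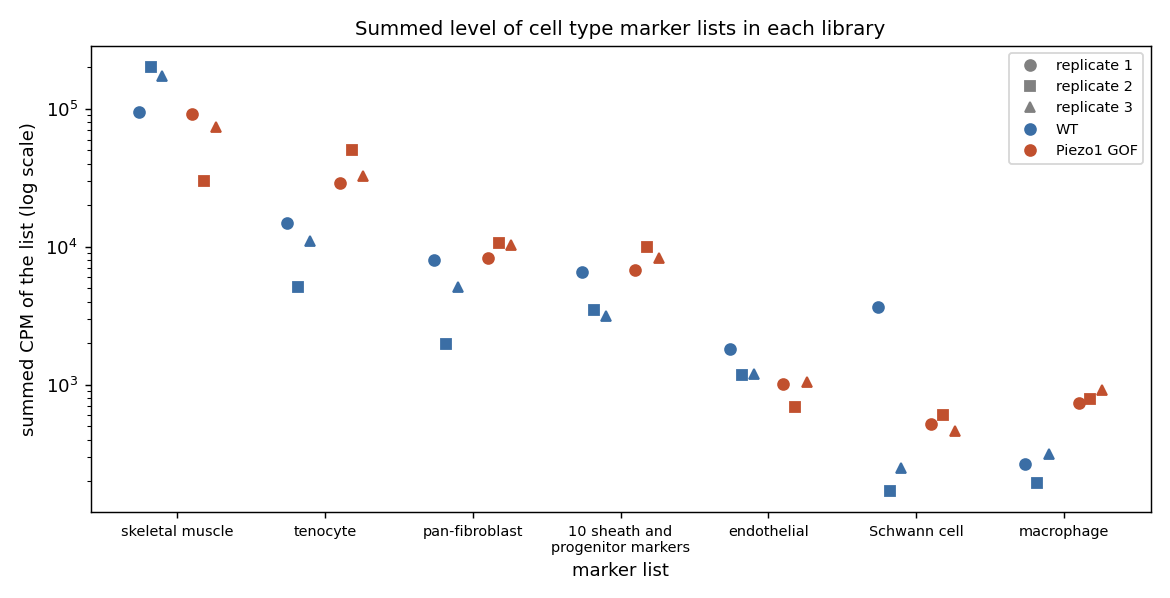
Summed CPM (log scale) of 7 marker lists in each library, WT in blue and Piezo1 GOF in red, with marker shapes for replicate numbers. The Schwann cell sum of WT replicate 1 (3672 CPM) lies above the other 5 libraries (169 to 606 CPM), and the macrophage sums of the groups do not overlap.

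The markers span about 3 orders of magnitude, and their order was similar in both genotypes. Levels were compared between genes per length, as TPM (a length-corrected share of all transcripts) computed here from the counts and the exon length of each gene. In WT, Gsn led with 5436 ± 2765 TPM (SD, n = 3), the 12th highest of 23334 genes with a length. Apoe (375 ± 195 TPM), Ly6a (316 ± 118) and Tppp3 (286 ± 30.9) followed, and these neighbours overlapped in their ranges. Cd34 (90.2 ± 33.7 TPM), Sema3c (53.2 ± 11.998), Clec3b (43.4 ± 13.0) and Cd55 (27.7 ± 5.29) came next, each overlapping its neighbour. Pi16 (15.9 ± 7.73 TPM) and Dpp4 (5.48 ± 1.63) were the lowest, and their ranges were separated by a narrow margin, with 6.96 TPM as the lowest for Pi16 and 6.95 TPM as the highest for Dpp4. In Piezo1 GOF, Gsn was at 10167 ± 2299 TPM, Ly6a (665 ± 151) and Apoe (603 ± 141) overlapped, and Tppp3 followed at 273 ± 41.2 TPM. Clec3b, 7th of the 10 in WT, was 5th at 183 ± 54.4 TPM, ahead of Cd34 (123 ± 14.4) with overlapping ranges. Gsn alone made up 79.7% to 89.9% of the summed CPM of the 10 markers in a library, so that sum follows Gsn.

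**Figure D2:**
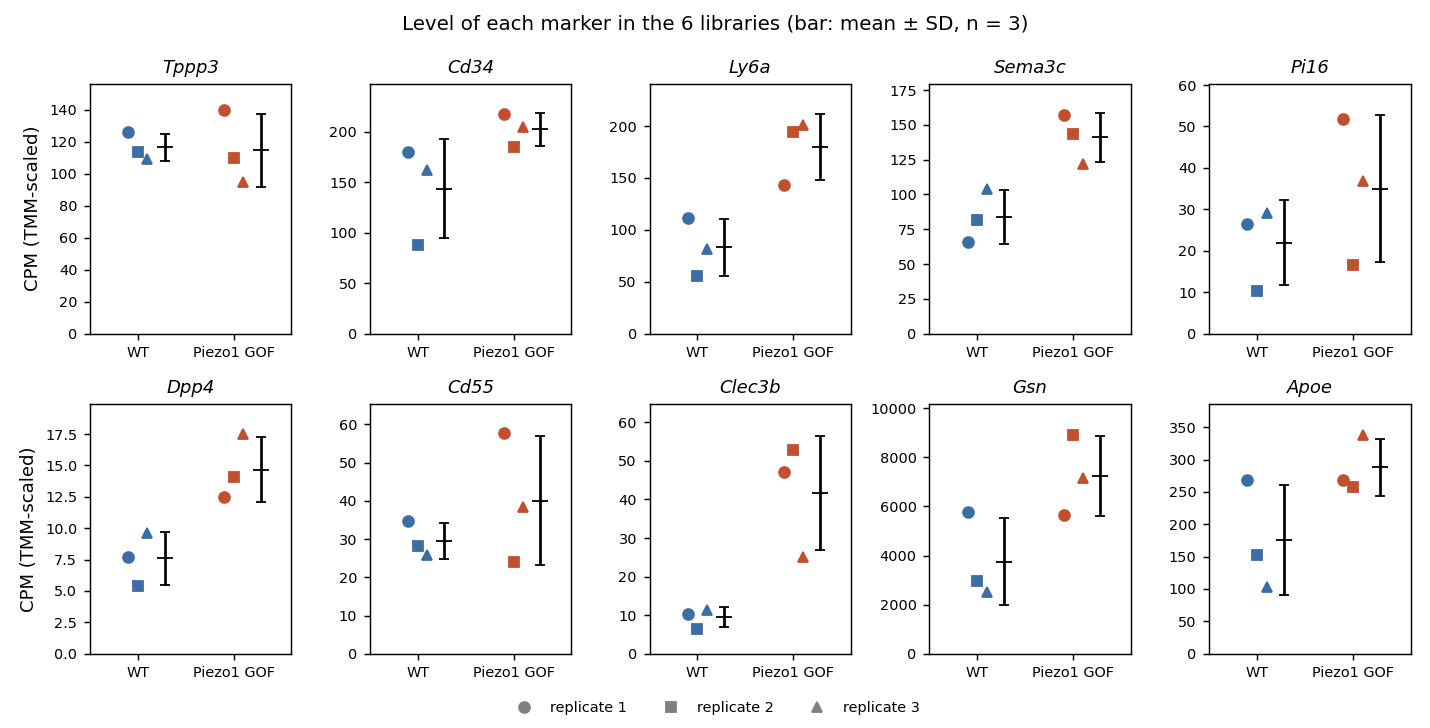
CPM of each marker in the 3 WT (blue) and 3 Piezo1 GOF (red) libraries, with the mean and SD beside the points and a linear axis from 0 for each gene. Clec3b, Ly6a, Dpp4, Sema3c and Cd34 have no overlap between genotypes, and Tppp3 has means of 116 and 115 CPM.

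Tppp3, the sheath marker, was at 126, 114 and 109 CPM in WT replicates 1 to 3 and at 139.7, 109.5 and 94.7 CPM in Piezo1 GOF replicates 1 to 3. The mutant libraries lay on both sides of the WT libraries, and the WT libraries differed by 1.15-fold from lowest to highest, the smallest such spread among the 10 markers in WT. The log2 fold change was -0.022 ± 0.22 (SE; edgeR adjusted p = 0.966), with a 95% interval of -0.52 to 0.48, so a log2 difference of 1 in either direction lay outside it. The sign of this near-zero value turned positive with upper-quartile scaling (0.027) and in 5 other alternatives. In mm10, Tppp3 (ENSMUSG00000014846.12; minus strand) occupies chromosome 8 from 105467493 to 105471526.

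The progenitor antigens Cd34 and Ly6a were higher in the mutant libraries to different degrees. Cd34 was at 180.2, 87.9 and 162 CPM in WT and at 217, 185 and 205 CPM in Piezo1 GOF. The lowest mutant library exceeded the highest WT library by a small margin, and WT replicate 2 was low. Its log2 fold change was 0.50 ± 0.29 (edgeR adjusted p = 0.367), 0.24 without WT replicate 2 and 0.72 without WT replicate 1. Cd34 (ENSMUSG00000016494.9; chromosome 1, plus strand, 194938819 to 194961279) is overlapped by the antisense gene Gm16897, which held 42.2 to 75.2 counts per library against 1376 to 2764 for Cd34. Use of strand in the counting is not stated, so reads of this pair may be shared.

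Ly6a was at 112, 55.9 and 81.7 CPM in WT and at 144, 195 and 201 CPM in Piezo1 GOF. All mutant libraries were above all WT libraries, and the log2 fold change was 1.116 ± 0.29 (95% interval 0.45 to 1.78; edgeR adjusted p = 0.130). DESeq2 called it (adjusted p = 0.0130), as did the exact test of edgeR (adjusted p = 0.0237), but limma voom did not (adjusted p = 0.0653). Without each library in turn the log2 fold change of Ly6a was 0.89 to 1.41 (edgeR adjusted p of 0.0538 to 0.335). With the muscle covariate it was 0.78 (edgeR adjusted p = 0.687). Ly6a (ENSMUSG00000075602.10; chromosome 15, minus strand, 74994877 to 74998031) belongs to a cluster of related antigen genes. Of its 1297 distinct transcript words of 50 bases, 246 (19.0%) also occur in transcripts of other genes, 195 of them in Ly6c1, and its counts were fractional in all 6 libraries, so some of its reads may have been divided with its relatives and its value is uncertain to that extent. The longest run that the coding sequences of the pair share is shown to give the extent of their likeness there.
Ly6a and Ly6c1, bases 337 to 384 of the Ly6a and 328 to 375 of the Ly6c1 coding sequence: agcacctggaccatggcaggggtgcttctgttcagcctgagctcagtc
The run is 48 bases long, shorter than the words counted above, so none of those words lies within it. Ly6c1 itself was at 144, 190.1 and 151 CPM in WT and at 226, 407 and 271 CPM in the mutant, without overlap, and its edgeR log2 fold change was 0.90 ± 0.29 (adjusted p = 0.170). Ly6e, a more distant relative that many cell types express, was at 82.8 ± 16.4 and 92.7 ± 15.4 CPM (0.16 ± 0.23; edgeR adjusted p = 0.720). Ly6c2, a monocyte-associated member, was at 0.0639 to 6.12 CPM in WT and 0.301 to 10.1 CPM in Piezo1 GOF. Endothelium also expresses Cd34 and Ly6a. For endothelial markers, edgeR gave 4 of 12 an unadjusted p under 0.05, all lower, against 9.59% of all tested genes lower. The median log2 fold change of the 12 was -0.44. Without WT replicate 1 it was 1 of 12, lower, a share near the 9.99% of all tested genes, and the median was -0.32. The part of endothelium in the Cd34 and Ly6a values was not tested. The adhesion molecule Pecam1 and the junction cadherin Cdh5 were not among those 4 endothelial markers. Pecam1 averaged 199 CPM in WT against 143 in the mutant, with overlapping groups (-0.47 ± 0.26; edgeR adjusted p = 0.339). Cdh5 averaged 207 and 152 CPM (-0.45 ± 0.22; edgeR adjusted p = 0.291). Of the 12 endothelial markers 2 had positive log2 fold changes, Cldn5 (0.40 ± 0.47) and Emcn (0.0029 ± 0.28).

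The secreted guidance factor Sema3c was at 65.6, 82.0 and 104 CPM in WT and at 157, 144 and 122 CPM in Piezo1 GOF. The groups did not overlap, and the log2 fold change was 0.75 ± 0.24 (95% interval 0.21 to 1.29; edgeR adjusted p = 0.170). Sema3c (ENSMUSG00000028780.13) lies on the plus strand of chromosome 5 at 17574281 to 17730268. Its log2 fold changes without each library in turn lay between 0.62 and 0.93. Among 13 other class 3 semaphorins and their receptors, 5 had positive log2 fold changes and the median was -0.25. Without WT replicate 1, 7 were positive and the median was 0.0083. By the unadjusted p of edgeR in that fit, 4 were higher, against 13.3% of all tested genes, and 1 was lower, against 9.99%. Over all 6 libraries, at an unadjusted p under 0.05 by edgeR, 2 were higher, Sema3a (25.5 ± 2.54 to 85.1 ± 35.5 CPM; edgeR adjusted p = 0.0572) and Sema3d (20.1 ± 12.4 to 54.7 ± 21.7 CPM), and 2 were lower, Sema3f (27.6 ± 6.02 to 16.04 ± 5.02 CPM) and the receptor Plxna2 (81.5 ± 11.7 to 51.9 ± 17.2 CPM). Of all tested genes 10.2% were higher and 9.59% lower at that level. The co-receptors Nrp1 (-0.25 ± 0.24) and Nrp2 (-0.29 ± 0.31) and the receptor Plxnd1 (-0.097 ± 0.30), through which class 3 semaphorins signal, had log2 fold changes within about 1 SE of 0.

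Pi16 and Cd55, markers of the same interstitial fibroblast, varied more between mutant libraries than between genotypes. Pi16, a secreted peptidase inhibitor family protein, was at 26.5, 10.2 and 29.2 CPM in WT and at 51.8, 16.5 and 36.8 CPM in Piezo1 GOF. The mutant libraries spread 3.15-fold, the widest of the 10 markers, and the log2 fold change was 0.68 ± 0.47 (95% interval -0.40 to 1.75; edgeR adjusted p = 0.446). Leaving out Piezo1 GOF replicate 1 gave 0.28, leaving out WT replicate 2 gave 0.32 and leaving out Piezo1 GOF replicate 2 gave 1.04. Cd55, which protects cells from complement by speeding the decay of its convertases, was at 34.8, 28.1 and 25.8 CPM in WT and at 57.7, 24.1 and 38.4 CPM in the mutant. Piezo1 GOF replicate 2 was the lowest of all 6 libraries and replicate 1 the highest, with a log2 fold change of 0.44 ± 0.31 (95% interval -0.27 to 1.14; edgeR adjusted p = 0.455) that was 0.078 without Piezo1 GOF replicate 1, 0.72 without Piezo1 GOF replicate 2 and 0.80 with the muscle covariate. Pi16 (ENSMUSG00000024011.17) lies on chromosome 17 at 29317680 to 29330593 and Cd55 (ENSMUSG00000026399.12) on chromosome 1 at 130439027 to 130462744. Pi16 and Cd55 shared this order in the mutant, replicate 1 above replicate 3 above replicate 2. Cd248, another adventitial fibroblast gene, was at 30.6, 20.8 and 11.7 CPM in replicates 1, 3 and 2. It is named because it was among the genes most correlated with Pi16, so its order is no separate result. The share of all genes with this order was not counted.

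Cd55 has a near copy, Cd55b, which holds 384 of its 4801 words of 50 bases. The longest shared coding run is printed because it shows how far the pair can be confused.
Cd55 and Cd55b, bases 98 to 295 of the Cd55 and 92 to 289 of the Cd55b coding sequence: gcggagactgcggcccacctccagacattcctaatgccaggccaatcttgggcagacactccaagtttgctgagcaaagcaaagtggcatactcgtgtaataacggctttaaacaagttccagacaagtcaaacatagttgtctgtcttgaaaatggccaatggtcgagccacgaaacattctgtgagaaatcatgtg
Cd55b held 1.61 counts in WT replicate 1 and 0 in the other 5 libraries, so the counts of the run of 198 bases were assigned almost wholly to Cd55. Among 7 tested complement components and regulators other than Cd55, all had positive fold changes, with a median log2 fold change of 1.18 (1.82 over 8 genes without WT replicate 1). Against 10.2% of all tested genes, 4 of the 7 were higher at an unadjusted p under 0.05 by edgeR. Among these were the central component C3 (132 ± 44.4 to 468 ± 93.2 CPM; edgeR adjusted p = 0.0572), the C1 inhibitor Serping1 (386 ± 211 to 892 ± 186) and C4b (139 ± 92.1 to 314 ± 113). The membrane regulators Cr1l (0.18 ± 0.20), which acts on the convertases as Cd55 does, and Cd59a (0.094 ± 0.23), which blocks the membrane attack complex, had log2 fold changes within about 1 SE of 0.

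Dpp4 and Clec3b differed between groups without overlap. Dpp4, a cell surface peptidase that trims chemokines and other peptides, was at 7.73, 5.43 and 9.62 CPM in WT and at 12.5, 14.0 and 17.5 CPM in Piezo1 GOF. Every mutant library was above every WT library, and the log2 fold change was 0.96 ± 0.30 (95% interval 0.28 to 1.64; edgeR adjusted p = 0.168), between 0.76 and 1.16 without each library in turn. Dpp4 (ENSMUSG00000035000.8; chromosome 2, minus strand, 62330073 to 62412231) rested on 72 to 236 counts per library, the fewest of the 10 markers. Of 9 tested relatives and partners of Dpp4, 6 had positive log2 fold changes, and the median was 0.18. Its closest relative, the fibroblast activation protein gene Fap, was at 6.55 ± 3.46 and 11.4 ± 3.33 CPM (0.82 ± 0.47; edgeR adjusted p = 0.351), and the chemokine substrate Cxcl12 at 199 ± 34.6 and 253 ± 49.4 CPM (0.35 ± 0.26; edgeR adjusted p = 0.477).

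Clec3b encodes tetranectin, a secreted C-type lectin that binds plasminogen. It was at 10.3, 6.51 and 11.4 CPM in WT and at 47.2, 52.9 and 25.0 CPM in Piezo1 GOF. The lowest mutant library was more than the highest WT library by a wide margin, and the log2 fold change was 2.15 ± 0.34 (95% interval 1.38 to 2.93), above 98.9% of all tested genes. This 95% interval does not meet those of Tppp3, Cd34, Cd55 or Sema3c. Clec3b missed the threshold by edgeR (adjusted p = 0.0572) and passed it without WT replicate 1 (adjusted p = 0.0435), by DESeq2 (adjusted p = 4.6e-06) and by the exact test of edgeR (adjusted p = 1.0e-05). Without each of the other 5 libraries in turn the edgeR adjusted p was 0.0919 to 0.206. With the mean log2 CPM of the muscle markers as a covariate it was 0.348 at a log2 fold change of 1.76. Its cartilage paralog Clec3a was at 221.9, 21.0 and 276 CPM in WT and at 2204, 2248 and 988 CPM in the mutant, with 3.39 ± 0.83 as its log2 fold change (edgeR adjusted p = 0.120). In both genes Piezo1 GOF replicate 3 was the lowest mutant library and WT replicate 2 the lowest WT library, and no 50-base word of Clec3b occurs in another gene's transcripts. Clec3b (ENSMUSG00000025784.5) lies on the plus strand of chromosome 9 at 123150946 to 123157432.

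**Figure D3:**
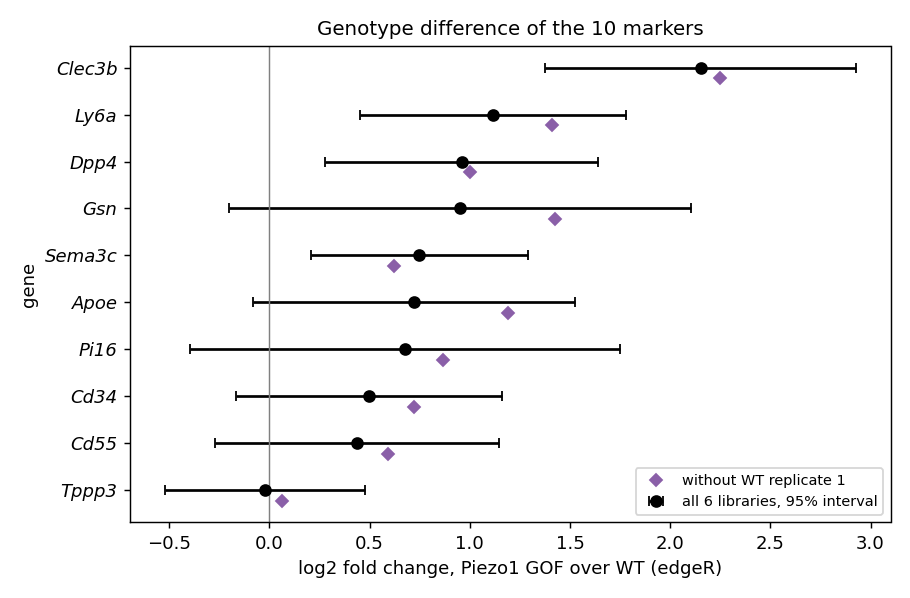
Log2 fold change of each marker (black points, 95% interval from the edgeR fit) and the value without WT replicate 1 (purple diamonds). The interval of Clec3b (1.38 to 2.93) lies above those of Tppp3, Cd34, Cd55 and Sema3c, and the diamonds of Gsn (1.42) and Apoe (1.19) lie to the right of their points.

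Gsn and Apoe, the abundant pair, moved most when WT replicate 1 was left out. Gsn was at 5768, 2965 and 2501 CPM in WT and at 5637, 8909.6 and 7178 CPM in Piezo1 GOF. WT replicate 1 lay above the lowest mutant library, and the other WT libraries were well below it. The log2 fold change was 0.95 ± 0.51 (95% interval -0.20 to 2.10; edgeR adjusted p = 0.325) and 1.42 ± 0.55 without WT replicate 1 (edgeR adjusted p = 0.174). With the muscle covariate it was 0.50 (edgeR adjusted p = 0.890). Apoe was at 269, 152 and 104 CPM in WT and at 269, 257 and 339 CPM in the mutant, again with WT replicate 1 among the mutant libraries. Its log2 fold change was 0.72 ± 0.35 (edgeR adjusted p = 0.292), 1.19 ± 0.31 without WT replicate 1 (edgeR adjusted p = 0.0809) and 0.45 without WT replicate 3. Without WT replicate 1, 7 of the 10 markers had an unadjusted p under 0.05 by edgeR, all higher, against 13.3% of all tested genes higher and 9.99% lower. In those 5 libraries 7 did not overlap between groups, against 23.4% higher and 20.2% lower, and 1, Clec3b, was called against 1.32% higher and 0.332% lower.

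Apoe is also made by macrophages and Schwann cells. By edgeR, 14 of 15 macrophage markers had an unadjusted p under 0.05, all higher, against 10.2% of all tested genes higher. Their median log2 fold change was 1.74, and 0 were past the adjusted threshold. Without WT replicate 1, edgeR called 9 of the 15 higher and 0 lower, against 1.32% of all tested genes higher and 0.332% lower. The lipid receptor gene Trem2 of macrophages was at 4.07 ± 2.45 and 11.3 ± 1.81 CPM. Among 13 genes of lipid carriage and uptake, 9 had positive log2 fold changes (median 0.26, and 0.63 without WT replicate 1), led by the apolipoprotein Clu (331 ± 152 to 3018 ± 1376 CPM; 3.19 ± 0.55 on the log2 scale; edgeR adjusted p = 0.0572), while the lipoprotein receptor Vldlr was at 159 ± 48.3 and 70.1 ± 28.2 CPM. In the gelsolin family, Capg (38.6 ± 12.7 to 89.0 ± 7.76 CPM) and Scin (4.26 ± 2.23 to 16.8 ± 7.38 CPM) were higher and Svil (524 ± 182 to 227 ± 60.6 CPM) lower without overlap. The relatives Avil (-1.76 ± 0.72 on the log2 scale) and Flii (-0.24 ± 0.24) had lower means with overlapping groups. Of 9 tested genes of this family and its actin, profilin and cofilin partners, 0 were past the adjusted threshold by edgeR. Gsn (ENSMUSG00000026879.14) lies on chromosome 2 at 35256380 to 35307892 and Apoe (ENSMUSG00000002985.16) on chromosome 7 at 19696109 to 19699188.

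Other genes of the same cell types were followed as 2 further lists. Of 8 other sheath and paratenon genes, 7 had positive log2 fold changes (median 0.71), and 0 passed the adjusted threshold. Lubricin (Prg4), which coats gliding surfaces, was at 580.0, 269 and 452 CPM in WT and at 1524, 3367 and 1686 CPM in the mutant, with 2.34 ± 0.47 as its log2 fold change (edgeR adjusted p = 0.0925). Pdgfra, the growth factor receptor carried by Tppp3 progenitors and most fibroblasts, was at 99.3 ± 28.8 and 156 ± 20.8 CPM (0.65 ± 0.26; edgeR adjusted p = 0.221), and the hyaluronan receptor Cd44 at 89.4 ± 20.2 and 152 ± 51.4 CPM. The negative member, Acta2, rests on the high value in WT replicate 1.

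Of 32 other interstitial progenitor genes tested, 26 had positive log2 fold changes (median 0.69). At an unadjusted p under 0.05 by edgeR 10 were higher and 1 lower, against 10.2% and 9.59% of all tested genes. Igfbp6, which binds insulin-like growth factor, was at 106 ± 54.9 and 415 ± 215 CPM (1.97 ± 0.46; edgeR adjusted p = 0.111), and Ugdh, which makes a precursor of hyaluronan, at 24.0 ± 7.88 and 57.5 ± 17.8 CPM. Limch1, an actin-associated protein, was the lower one, at 672 ± 257 and 239 ± 45.5 CPM (-1.49 ± 0.35; edgeR adjusted p = 0.112). Several defining genes of this fibroblast had values near 0, among them Mfap5 (0.16 ± 0.52), Scara5 (0.069 ± 0.49) and Col14a1 (-0.17 ± 0.38). Without WT replicate 1, which was the highest of the 6 libraries for Mfap5 and Scara5, they were 0.93 ± 0.45, 0.78 ± 0.41 and 0.021 ± 0.43 (edgeR adjusted p of 0.253, 0.292 and 0.983). Among 7 markers used for cultured tendon stem cells, 4 had positive log2 fold changes (median 0.22, and 0.75 without WT replicate 1), with Nt5e at 32.9 ± 8.67 and 81.2 ± 5.28 CPM (1.31 ± 0.23; edgeR adjusted p = 0.0637), Thy1 at 38.9 ± 23.8 and 137 ± 56.6 CPM (1.82 ± 0.51), and the intermediate filament gene Nes at 144 ± 78.8 and 47.4 ± 24.5 CPM (-1.60 ± 0.49).

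**Figure D4:**
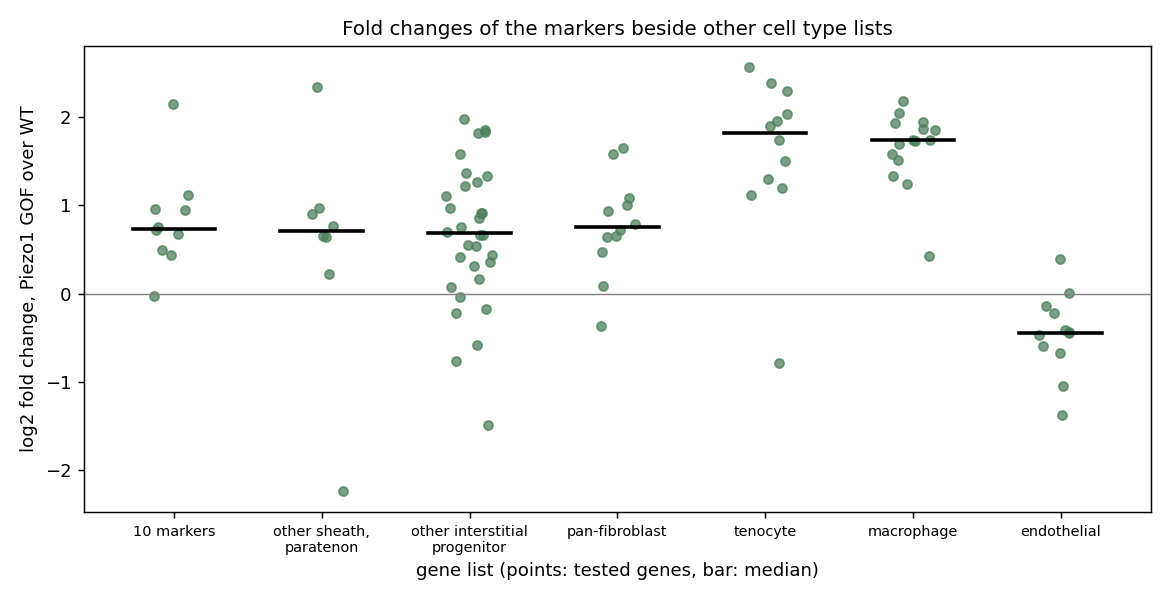
Log2 fold changes (edgeR, Piezo1 GOF over WT) of the tested genes of 7 lists, with a bar at each median. The 10 markers (median 0.73), the other sheath genes (0.71), the other interstitial progenitor genes (0.69) and the pan-fibroblast genes (0.76) have medians below the tenocyte (1.82) and macrophage (1.74) lists.

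The markers were also set against the tenocyte genes of the same library, a comparison that does not depend on library scaling. For the 12 tenocyte markers the median log2 fold change was 1.82, and their mean log2 CPM was 8.49, 6.76 and 8.44 in WT and 9.44, 10.1 and 9.61 in Piezo1 GOF. Relative to that mean, Tppp3 was at -1.51, 0.073 and -1.66 log2 units in WT and at -2.31, -3.34 and -3.04 in Piezo1 GOF, with no overlap between the groups. Cd34 was at -0.99, -0.30 and -1.10 in WT and at -1.68, -2.59 and -1.93 in the mutant, also without overlap. On this scale 83.9% of all tested genes were lower without overlap and 0.201% higher, since the tenocyte mean itself did not overlap, so 2 of 10 is a smaller share than the background and is no result about these markers. For both genes the two-sided exact permutation p was 0.1, the smallest that 3 against 3 can give, and 0.4 after adjustment over 20 comparisons. The relative levels of the other 8 markers overlapped, and Clec3b alone had a higher mean relative level in Piezo1 GOF, at -4.67 ± 0.58 in WT and -4.41 ± 0.54 in the mutant (SD, n = 3; exact permutation p = 0.6). Relative to 12 pan-fibroblast genes, all 10 markers overlapped between the groups, against 28.1% of all tested genes lower and 1.26% higher without overlap, with exact permutation p between 0.2 and 0.9. The 12 pan-fibroblast genes, among them Dpt (54.1 ± 32.0 to 161 ± 34.8 CPM) and Serpinf1 (609 ± 328 to 1910.1 ± 578 CPM), had a median log2 fold change of 0.76. Without WT replicate 1 it was 1.24, beside 0.94 for the 10 markers, 0.84 for the other sheath genes and 0.96 for the other interstitial genes.

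**Figure D5:**
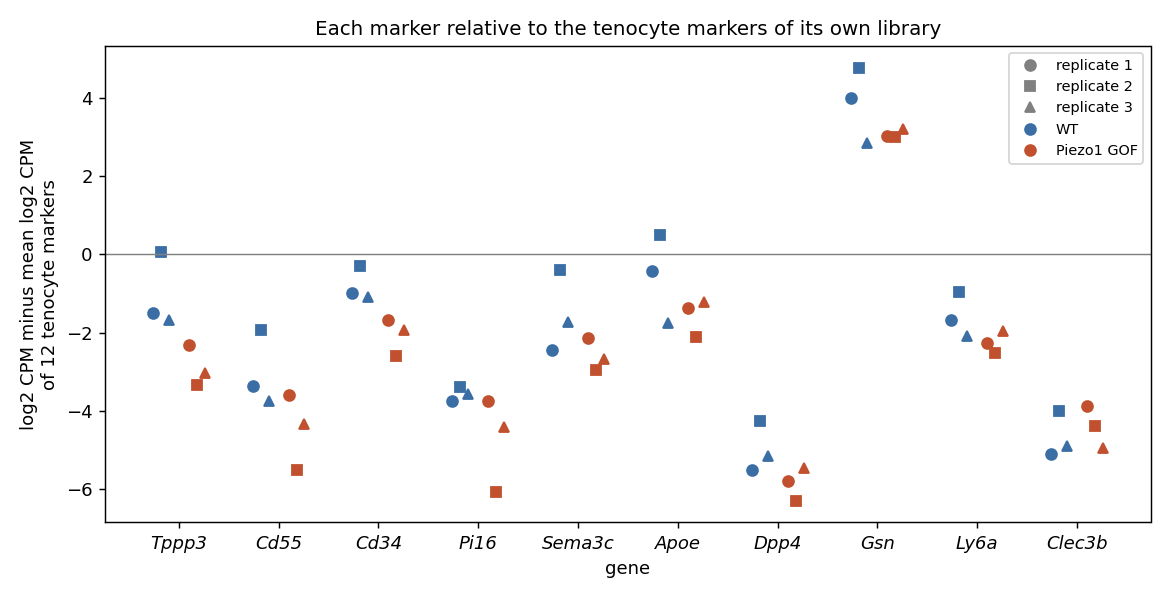
Each marker's log2 CPM minus the mean log2 CPM of 12 tenocyte markers in the same library, WT in blue and Piezo1 GOF in red. Tppp3 and Cd34 have no overlap between groups, with the mutant lower as for 83.9% of all tested genes, and Clec3b has the 1 positive difference of group means.

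The promoters of 2 markers whose groups did not overlap are shown for comparison, since these genes had fold changes of similar size. They are the RefSeq windows of build GRCm38.p6, from 250 bases before to 50 after a start listed in RefSeq, which were found for 7 of the 10 markers. For Sema3c that start lies inside the gene as GENCODE annotates it, downstream of the gene start given above. Capitals mark matches, on either strand, to the letters TATAAA of a TATA box, the letters GGGCGG of a GC box, the CCAAT box, the letters CANNTG of an E-box, the letters TGANTCA of an AP-1 site or the letters GGAATG of a TEAD site. These motifs do not overlap each other in the printed windows.
Dpp4, chr2:62412182-62412481, minus strand: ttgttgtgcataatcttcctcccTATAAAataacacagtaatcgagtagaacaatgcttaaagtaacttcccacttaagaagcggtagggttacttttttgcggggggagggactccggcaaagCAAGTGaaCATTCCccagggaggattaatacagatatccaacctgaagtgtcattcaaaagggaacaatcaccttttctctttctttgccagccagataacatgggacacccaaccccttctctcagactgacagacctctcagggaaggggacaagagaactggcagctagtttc
Sema3c, chr5:17574566-17574865, plus strand: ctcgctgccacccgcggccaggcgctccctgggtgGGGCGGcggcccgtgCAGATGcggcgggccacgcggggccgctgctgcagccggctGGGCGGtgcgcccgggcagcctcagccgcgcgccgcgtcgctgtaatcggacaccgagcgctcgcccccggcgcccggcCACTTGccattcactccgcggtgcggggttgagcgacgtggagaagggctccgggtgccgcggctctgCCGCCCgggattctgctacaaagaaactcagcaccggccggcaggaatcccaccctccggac
The Dpp4 window, with 45.3% G or C, holds 1 TATA box, 1 E-box and 1 TEAD site, and the Sema3c window, with 75.7%, holds 3 GC boxes and 2 E-boxes. Among 32851 mouse windows of this length, 13.6% hold the TATA letters, 35.7% the GC box, 72.3% an E-box and 14.7% the TEAD letters. These matches describe the letters of the windows and no factor was measured there.

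Genes whose levels followed each marker most closely over the 6 libraries were searched among 10959 genes with a mean of at least 5 CPM, as a description, since the best of so many genes reaches a high correlation in 6 libraries that fall into 2 genotypes. Clec3b was followed by Gdf5, a growth factor of joints and tendon (Pearson r = 0.998, Spearman rho = 1.0 over 6 libraries), Scrg1 and Cracr2b. For Dpp4 the nearest were Dpep2, Lsp1 and Csf1r, the last a macrophage receptor (r = 0.992), and for Ly6a they were Cd53, a leukocyte tetraspanin (r = 0.996), Ctdspl and Ctsb. Pi16 was followed by Morc4, Myo7a and the adventitial gene Cd248 (r = 0.971), and Cd34 by Cotl1, Adamtsl3 and the collagen gene Col6a2 (r = 0.993). Tppp3 had Puf60, Map1s and Gadd45gip1 as its nearest genes, with log2 fold changes between -0.076 and -0.0038. Cd55 was followed by Pgpep1 (r = 0.987) and 5730508B09Rik (r = 0.983), and for Sema3c the nearest were Efhd2, Foxp4 and Gli2, a hedgehog pathway transcription factor (r = 0.975). Gsn was followed by Prkar2b, Pld2 and Rab3d (r between 0.993 and 0.996), and Apoe by Olfr558, Slc25a10 and Cgnl1 (r between 0.989 and 0.996).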

How the data were processed

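RNA from Achilles tendon of WT and Piezo1 GOF mice was purified on columns, per the labels' protocols. The 3 WT and 3 Piezo1 GOF libraries were made with a single-cell RamDA-seq kit and not-so-random primers. The deposited table holds RSEM expected counts per gene, and STAR, RSEM, bcl2fastq, edgeR and the build mm10 are named in the submitters' processing notes, without versions or roles. Strand use in counting is not given in the sources used here. Expected counts were rounded to whole numbers (7.8% to 8.88% of all values were not whole) and tested with edgeR 4.0.16 in R 4.3.3 (filterByExpr with a minimum count of 10, TMM factors of 0.897 to 1.10, quasi-likelihood test on genotype), with Benjamini-Hochberg adjustment over 13466 genes at 0.05. In simulated data on these 13466 genes for this comparison, the quasi-likelihood test recovered 12% of 50 genes changed 2-fold. It recovered 76% of 50 changed 4-fold, 86% of 8-fold and 88% of 16-fold, so this test mostly misses a 2-fold difference. Alternatives used DESeq2 1.42.0, edgeR's exact test, limma 3.58.1 voom with quality weights, other scalings and filters, a muscle covariate, a replicate block and each library left out. TPM were computed here with GENCODE M21 exon lengths, matched by symbol for 95.6% of genes. Replicates of a group differed beyond sampling noise, with chi-square per degree of freedom of 40.9 to 141. The exact permutation test compared 3 with 3 libraries. Named genes were the 10 markers, Cd55b, Ly6c1, Ly6c2, Ly6e, Piezo1 and Scx, up to 4 tested genes of smallest unadjusted p from each other list, and the 3 genes most correlated with each marker. Genes shown in addition, such as Cr1l, Mfap5, Nrp1, Cxcl12 and Gm16897, were chosen after their values were seen. The markers and lists were chosen with earlier results of these data known. A few genes that this rule names are not reported here.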

Additional observations from a re-analysis of the deposited data

How the results depend on the processing

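The count of all genes called by edgeR (2) and of the 10 markers called (0) depended on the method. Without the low-count filter they were 165 and 1, with DESeq2 882 and 2, with the exact test 689 and 2, and at a threshold of 0.1 they were 151 and 1. With voom they were 116 and 0. Without scaling factors, with the muscle covariate and with the replicate block 0 genes and 0 markers were called. The labels state no pairing of replicate numbers. The deviations of same-numbered libraries from their group means correlated at -0.21, -0.14 and -0.053, which with so few libraries cannot decide whether samples were paired. Leaving out each library in turn gave 0 to 228 genes and 0 to 1 markers, the highest in both without WT replicate 1. The cause of these shifts was not tested. Of 180 combinations of a marker and an alternative, 168 kept direction and side of the threshold, 6 passed the threshold (Clec3b and Ly6a) and 6 reversed, all for Tppp3. Its log2 fold change was 0.027 with upper-quartile factors, 0.060 without factors and 0.023 with the muscle covariate, and -0.19 to 0.11 without each library, positive without WT replicate 1 (0.061), Piezo1 GOF replicate 2 (0.033) and replicate 3 (0.11). Scaling without factors shifted the median of all genes to 0.10. At this depth and spread, differences near 2-fold were mostly not detectable by the quasi-likelihood test of edgeR, the only test run on simulated data.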
